A study of Mus musculus with 6 samples.

Results

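The Hox genes of 6 mouse bulk RNA-seq libraries are described here. The members were all rows of the count tables whose symbol is Hox followed by a cluster letter and a paralogue number, 39 of the 24062 genes listed. They comprised 11 genes of the HoxA cluster on chromosome 6, 10 of HoxB on chromosome 11, 9 of HoxC on chromosome 15 and 9 of HoxD on chromosome 2 (GRCm38). All 39 are annotated as protein coding.

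Hox genes encode homeodomain transcription factors that set position along the head-to-tail axis. Within a cluster, genes of low paralogue number lie at the 3′ end and are switched on early and as far forward as the hindbrain, whereas genes of high paralogue number lie at the 5′ end and are switched on late and toward the tail. Neural crest derivatives, such as the sensory neurons, glia and fibroblasts of a dorsal root ganglion (DRG), keep part of the Hox code of the level at which they arose, so that the members expressed in a ganglion depend on its spinal level and on the cells it holds. Genes of paralogue groups 1 to 3 are known from the hindbrain and upper neck, 4 to 5 from the neck, 6 to 8 from the brachial and thoracic levels, 9 from the thoracic level and 10 to 13 from the lumbar level to the tail.

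The study compared peripheral nerve tissue of a neurofibroma mouse model with and without *Runx1* and *Runx3*, which encode transcription factors. There were 3 libraries from *Nf1fl/fl;DhhCre* mice, called Nf1 here, and 3 labelled *Rx1flfl;Rx3fl/fl;DhhCre*, called dKO here. The study's methods give *Nf1fl/fl* for the dKO mice also, so that by its account loss of *Nf1* and *DhhCre* were shared by all 6 libraries. Cre driven by the *Dhh* promoter acts in Schwann cells (SCs) and their precursors, and cells in which it has not acted keep intact copies. The strain background was labelled C57BL/6-I129 for both groups. The tissue was labelled DRG for the Nf1 libraries and neurofibroma tumor for the dKO libraries, and DRG/tumors in the extraction protocol. The study's results instead name tumors for the Nf1 mice and DRG/tumors for the dKO mice, and its methods name DRG/tumors for both. The sources thus disagree on the tissue of each group, and the part of tissue type in the Hox differences was not tested. Neither the spinal level of the ganglia nor the age of these mice is given in the sources used here. Replicates carry numbers in label order only. Each title holds a sample number, but no label says that the samples of a group came from separate mice, and the p-values below measure the spread between these samples.

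Depth was 12439296 to 16682194 counts a library, so that the upper limit for a count of 0, taken as 3 counts, was 0.180 to 0.241 CPM before TMM scaling. Replicates of a group differed well beyond counting noise (chi-square per degree of freedom 22.8 to 142 over the pairs). The targeted genes were examined first. *Runx3* was at 19.9, 15.1 and 29.9 CPM (counts scaled to a common library size with TMM factors) in Nf1 replicates 1 to 3 but 13.5, 10.3 and 12.1 CPM in the libraries labelled dKO. *Runx1* was at 131, 141 and 172 CPM in Nf1. In the libraries labelled dKO it was at 84.0, 78.9 and 185 CPM, and replicate 3 was above every Nf1 library. Bulk RNA includes cells in which Cre has not acted, so this level does not settle the genotype of that library. Both libraries numbered 2 held skeletal muscle RNA. The summed level of 10 muscle markers was 19080 CPM in Nf1 replicate 2 and 48408 CPM in replicate 2 labelled dKO, against 94.2 to 575 CPM in the other 4 libraries. Of the libraries labelled dKO, 1 came from another sequencing run than the other 5, which may be replicate 2 or 3, since titles and deposited tables disagree on the sample number within a genotype. The genotype is the same either way.

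The promoters of *Hoxd1* and *Hoxd8* are printed because these members had the highest levels per length in HoxD and both were called higher in the libraries labelled dKO. Each line holds the 250 bases before the RefSeq start site (GRCm38.p6, plus strand, 5′ to 3′), with CpG dinucleotides in capitals.
Hoxd1, chr2:74762730-74762979: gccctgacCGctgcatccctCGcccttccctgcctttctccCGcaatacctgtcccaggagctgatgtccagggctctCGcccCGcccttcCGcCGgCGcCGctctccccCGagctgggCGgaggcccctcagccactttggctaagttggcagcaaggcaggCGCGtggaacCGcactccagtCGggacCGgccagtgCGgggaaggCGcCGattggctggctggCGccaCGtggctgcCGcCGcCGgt
Hoxd8, chr2:74704365-74704614: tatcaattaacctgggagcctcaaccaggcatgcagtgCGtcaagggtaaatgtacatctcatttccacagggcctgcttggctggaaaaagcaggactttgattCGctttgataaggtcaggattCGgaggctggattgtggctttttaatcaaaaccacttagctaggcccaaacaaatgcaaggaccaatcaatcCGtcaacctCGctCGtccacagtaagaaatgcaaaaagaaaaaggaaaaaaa
The *Hoxd1* window had 24 CpGs and 71.6% GC, whereas the *Hoxd8* window had 6 CpGs and 44.4% GC. RefSeq windows were at hand for 22 of the 39 members, 24 windows in all, with a median of 58.6% GC and 12.5 CpGs against 52.4% GC and 6 CpGs over 32851 windows of all genes. The RUNX core TGTGGT, searched on both strands, was found in 1 Hox window (4.17%), that of *Hoxd10*, against 14.05% of all windows. The HOX-PBX composite TGATNNAT, on both strands, was found in 4 Hox windows (16.7%), those of *Hoxa2*, *Hoxb1*, *Hoxb8* and *Hoxd11*, against 7.68% of all windows. The windows of *Hoxd1* and *Hoxd8* held neither motif. The study took the shorter TGTGG as a putative RUNX-binding site. That form was not searched over the windows, and it does occur in the printed *Hoxd8* window.

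Levels of different members were compared in CPM per kb of merged exons. *Hoxb3* ranked first by the mean over 6 libraries, at 4.18 ± 0.787 CPM per kb (SD, n = 3) in Nf1 and 4.47 ± 0.311 CPM per kb (SD, n = 3) in the libraries labelled dKO. It was followed by *Hoxd1*, *Hoxb7*, *Hoxb4*, *Hoxd8* and *Hoxa5*. Over all 6 libraries these means ran from 4.33 CPM per kb for *Hoxb3* to 2.97 CPM per kb for *Hoxa5*, and the libraries' values overlapped between every neighbouring pair in that order. *Hoxd1* ranked 13, 4 and 16 in the Nf1 libraries but 2, 2 and 1 in the libraries labelled dKO. *Hoxd8* ranked 12, 7 and 11 in Nf1 and 4, 1 and 3 in the libraries labelled dKO. By the mean over all 6 libraries, the leading member was *Hoxa5* in HoxA, *Hoxb3* in HoxB, *Hoxc6* in HoxC and *Hoxd1* in HoxD. In single libraries another member of the cluster was above it in each of the 4 clusters. *Hoxa2* was above *Hoxa5* in Nf1 replicate 2 and *Hoxd8* above *Hoxd1* in 3 libraries. *Hoxb3* was below *Hoxb4* in Nf1 replicates 2 and 3, below *Hoxb7* in Nf1 replicate 3 and below *Hoxb5* in replicate 3 labelled dKO.

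**Figure D1:**
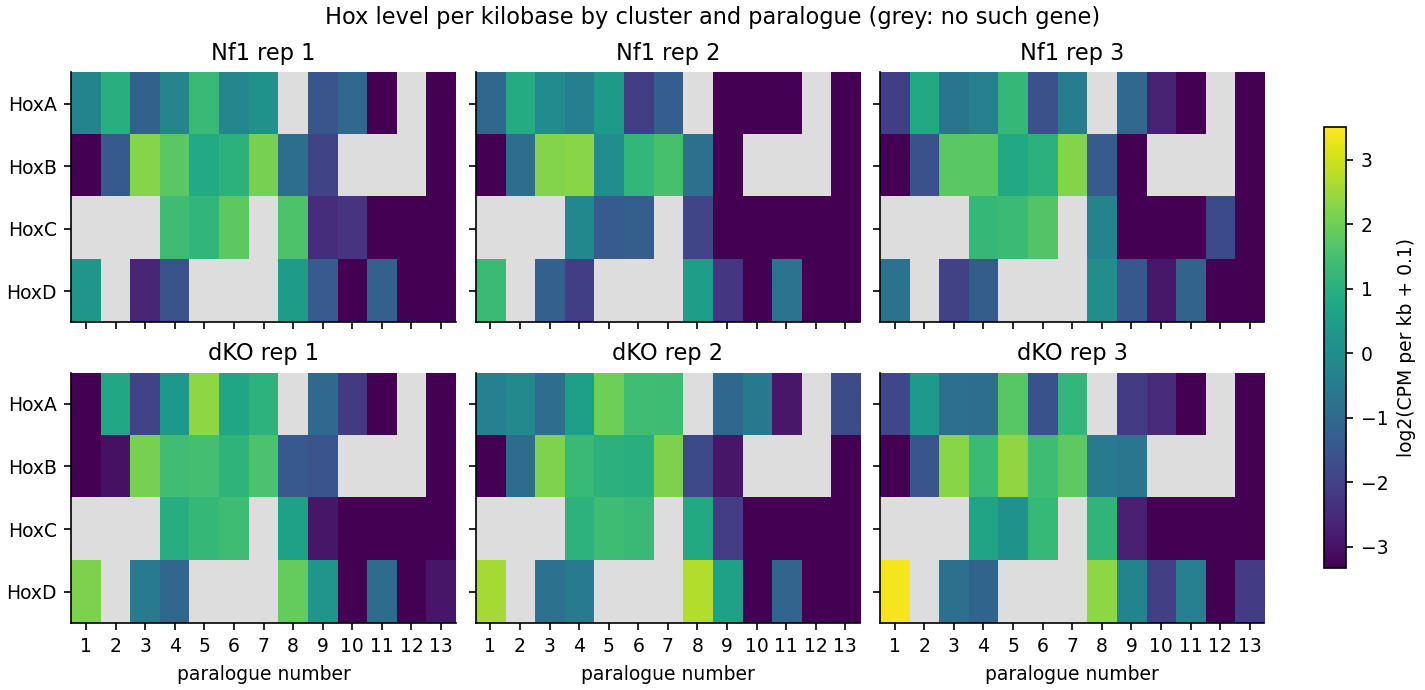
Level of every Hox gene, as log2(CPM per kb + 0.1), by cluster (rows) and paralogue number (columns), in 1 panel a library; grey marks positions with no gene. In every library *Hoxa9* is below *Hoxa7*, *Hoxb8* below *Hoxb7* and *Hoxc9* below *Hoxc8*, HoxC is dark in Nf1 replicate 2, and HoxD is brighter at paralogues 1, 8 and 9 in the 3 libraries labelled dKO.

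Hox RNA was concentrated in paralogue groups 1 to 8 in every library. Of 39 members, 23 had a count in all 6 libraries and 16 had at least 10 counts in all 6. No count was found in any library for 5 members, *Hoxb1*, *Hoxb13*, *Hoxc11*, *Hoxc13* and *Hoxd12*. *Hoxb1* is a hindbrain gene of the front end of its cluster, and the other 4 belong to the posterior end. Paralogue groups 10 to 13 together took 2.82, 2.82 and 2.25% of the Hox counts in Nf1 and 2.03, 3.04 and 2.81% in the libraries labelled dKO. The lowest of these 6 shares had a 95% Wilson interval of 1.42 to 2.90% and the highest of 2.31 to 4.0%, which overlap. Such intervals cover counting error only, since reads amplified by PCR are not independent molecules.

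Over all libraries together, *Hoxd11*, a gene of the developing limb and kidney and of lumbosacral levels, gave more of the posterior counts than the other 11 members. It had 20, 36 and 23 counts in Nf1 and 23, 19 and 44 counts in the libraries labelled dKO, or 1.39, 2.14 and 1.48 CPM against 1.83, 1.56 and 2.90 CPM. The groups overlapped and in log2 units the difference was 0.33 (SE 0.43, adjusted p = 0.632, limma-voom). Its exons share 455 bases with the transcript Gm28309 in the GENCODE M21 annotation, and reads there cannot be assigned to either with certainty. Without *Hoxd11*, the 11 other members of groups 10 to 13 had 22, 0 and 7 counts together in Nf1 and 6, 30 and 13 counts in the libraries labelled dKO. *Hoxa10* made up most of them, with 19, 0 and 3 counts against 5, 23 and 4 counts. *Hoxc10*, which together with *Hoxd10* marks lumbar motor neurons, had 3 counts in Nf1 replicate 1 and 0 in the other libraries. *Hoxd10* had 1 count in Nf1 replicate 3 and 4 counts in replicate 3 labelled dKO.

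The edge of detection was drawn in each cluster at the last member with at least 10 counts in all 6 libraries. In HoxA it was *Hoxa7*, and the next gene, *Hoxa9*, had 20, 0 and 35 counts in Nf1 and 28, 26 and 11 counts in the libraries labelled dKO. In HoxB it was *Hoxb7*, and *Hoxb8* beyond it had 17, 21 and 12 counts against 9, 6 and 24 counts. In HoxC it was *Hoxc6*, and *Hoxc8*, a gene of brachial motor neurons, had 119, 8 and 32 counts against 50, 57 and 91 counts. The low values at *Hoxa9* and *Hoxc8* were both in Nf1 replicate 2. In HoxD the last such member was *Hoxd11*, with *Hoxd12* at 0 in all libraries. The rule allows gaps, and *Hoxd11* stood apart from *Hoxd8*. Between them, *Hoxd9* had 9, 4 and 9 counts in Nf1, and *Hoxd10* had 0 to 4 counts over all libraries. *Hoxc9*, which in the spinal cord sets thoracic motor neuron identity, was near absent at 3, 0 and 0 counts in Nf1 and 1, 4 and 2 counts in the libraries labelled dKO. *Hoxb9* had 6, 0 and 0 counts against 8, 1 and 21 counts.

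Per library, the highest paralogue number with at least 10 counts in HoxA was 10, 7 and 9 in Nf1 and 9, 10 and 9 in the libraries labelled dKO. In HoxB it was 8 in all 3 Nf1 libraries and 7, 7 and 9 in those labelled dKO, and in HoxC it was 8 in every library except Nf1 replicate 2, where it was 6. Every library reached 11 in HoxD. Thus no group lay wholly behind the other on this measure in any cluster.

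A mean paralogue number was computed for each library with CPM per kb as weights. It was 5.19, 4.36 and 5.17 in Nf1 and 5.10, 5.25 and 4.79 in the libraries labelled dKO, or 4.91 ± 0.47 against 5.04 ± 0.23 (SD, n = 3 each). The difference of 0.14 was smaller than the SD of either group. With CPM not divided by length as weights it was 0.31, and with log2(CPM per kb + 1) as weights it was 0.30, where the values of 5.26, 4.55 and 5.23 in Nf1 and 5.30, 5.35 and 5.29 in the libraries labelled dKO did not overlap. It was 0.60 with *Hoxd1* left out. Without Nf1 replicate 2 the difference was -0.13, and without both libraries rich in muscle RNA it was -0.24. In HoxA alone the mean was 4.11 ± 0.61 in Nf1 and 5.19 ± 0.25 in the libraries labelled dKO (SD, n = 3 each), with values of 4.52, 3.41 and 4.40 against 5.12, 5.47 and 4.99 that did not overlap. In HoxD alone it was 5.64, 4.35 and 6.43 in Nf1 and 4.93, 5.14 and 3.94 in the libraries labelled dKO, or 5.47 ± 1.05 against 4.67 ± 0.64 (SD, n = 3 each), and the groups overlapped. No test was applied to these scores over the members.

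**Figure D2:**
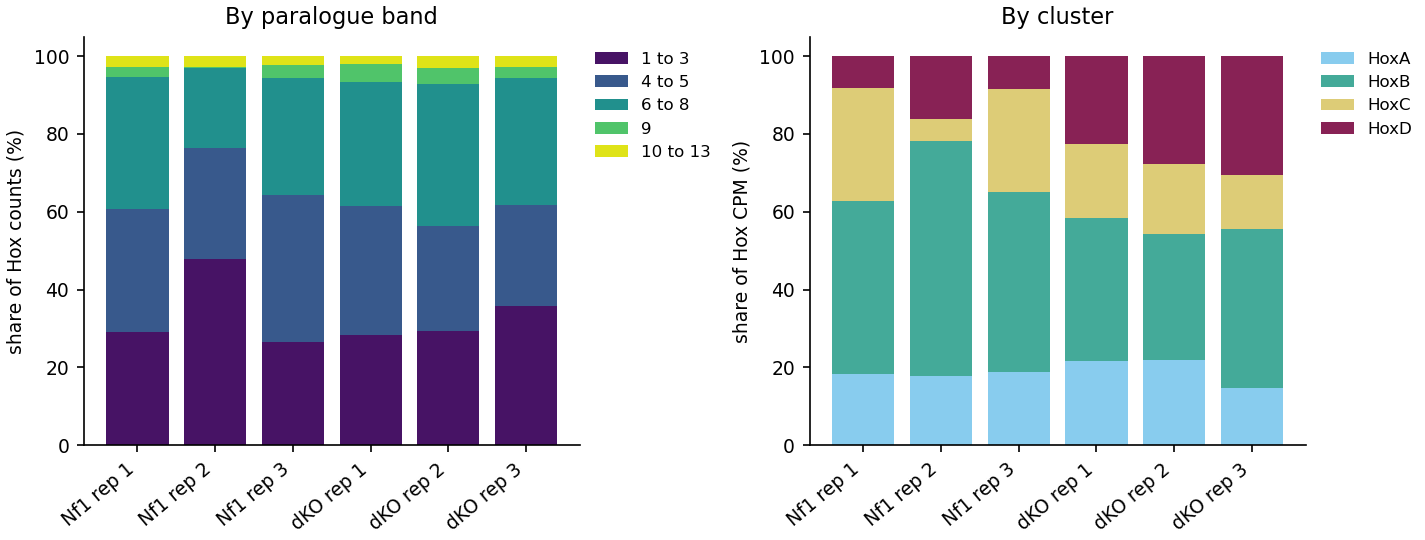
Stacked bars give, for each library, the share of Hox counts in 5 bands of paralogue number (left, percent of Hox counts) and the share of the Hox sum in each cluster (right, percent of Hox CPM). Nf1 replicate 2 has the largest band 1 to 3, at 47.8%, and the smallest HoxC share, at 5.57%, and HoxD is larger in each library labelled dKO (22.7 to 30.7%) than in any Nf1 library (8.27 to 16.2%).

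By band, paralogues 1 to 3 held 29.1, 47.8 and 26.5% of Hox counts in Nf1 and 28.3, 29.4 and 35.7% in the libraries labelled dKO. The Wilson interval of Nf1 replicate 2, 45.1 to 50.6%, lay above those of all other libraries. Paralogues 4 to 5 held 32.7 ± 4.84% in Nf1 and 28.8 ± 3.79% in the libraries labelled dKO (SD, n = 3 each). For paralogues 6 to 8 the shares were 28.2 ± 6.88% and 33.6 ± 2.44%, and for paralogue 9 they were 2.06 ± 1.55% and 3.88 ± 0.91% (SD, n = 3 each). In each of these bands the groups overlapped.

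The summed level of all 39 members was 103, 76.0 and 85.5 CPM in Nf1 and 114, 132 and 134 CPM in the libraries labelled dKO. The groups did not overlap, and the ratio of the means, 126.7 ± 11.2 to 88.2 ± 13.8 CPM (SD, n = 3 each), was 1.44. HoxD carried most of that difference, with 8.53, 12.3 and 7.12 CPM in Nf1 and 25.8, 36.8 and 41.1 CPM in the libraries labelled dKO. HoxA gave 18.9, 13.6 and 16.1 CPM against 24.7, 29.1 and 19.6 CPM, also without overlap. HoxB, the largest cluster by level, gave 45.9, 45.9 and 39.6 CPM against 41.7, 42.9 and 54.7 CPM, and its groups overlapped. HoxC was at 29.8, 4.23 and 22.7 CPM against 21.6, 23.6 and 18.6 CPM, with the single low value in Nf1 replicate 2. In bulk tissue, fewer cells of a type cannot be told apart from less RNA per cell.

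Each gene was then compared between the groups in a fit over all 15652 genes tested. Of the 39 members, 25 passed the filter on low counts and 14 did not. Among the 25, *Hoxd9* passed only through the libraries labelled dKO and so could scarcely have been found lower there. At an adjusted p below 0.05 and more than 2-fold, 4 members (*Hoxd8*, *Hoxa7*, *Hoxd1* and *Hoxd9*) were called higher in the libraries labelled dKO, against 8.03% of all genes tested. None was called lower, against 5.36% of all genes. The share of all genes called in either direction was 13.4%, and 19.3% without the limit on fold change, where the Hox count stayed at 4. The edgeR and DESeq2 tests also called 0 members lower, and at an unadjusted p below 0.05 in limma-voom 8 of the 25 members passed, of which 1, *Hoxb4*, was lower, against 35.2% of all genes tested. Over 2-fold higher at an unadjusted p below 0.05 were 7 members, against 11.1% of all genes. DESeq2 called 6 members higher, against 10.7% of all genes. The log2 fold change was above 0 in 18 tested members and below 0 in 7, with a median of 0.65 beside 0.02 over all genes. That median was the value of *Hoxc5*, which was -0.36 without Nf1 replicate 2. CPM values did not overlap between the groups for 10 of the 25, with 8 above and 2 below, whereas 42.3% of all genes tested did not overlap.

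*Hoxd8*, a central HoxD gene active at trunk levels, was at 3.47, 3.57 and 2.57 CPM in Nf1 but 9.96, 17.6 and 13.7 CPM in the libraries labelled dKO. Every library labelled dKO lay more than 2-fold above every Nf1 library. In log2 units the difference was 2.07 (SE 0.34, adjusted p = 0.0125, limma-voom). *Hoxd8* was called when any of 5 libraries was left out singly, at 2.05 without replicate 3 labelled dKO (adjusted p = 0.0271, limma-voom), but not without Nf1 replicate 1 (2.15, adjusted p = 0.0564, limma-voom). Its exons overlap no other annotated gene.

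*Hoxd1* lies at the 3′ end of its cluster and is known, unusually for a group 1 gene, from nociceptive sensory neurons. It was at 2.08, 4.53 and 0.898 CPM in Nf1 but 8.05, 10.9 and 19.3 CPM in the libraries labelled dKO. All 3 of the latter lay above the Nf1 libraries, and replicate 3 labelled dKO was the highest. In log2 units the difference was 2.53 (SE 0.63, adjusted p = 0.0338, limma-voom). It was 2.15 without replicate 3 labelled dKO (adjusted p = 0.0584, limma-voom) and 3.23 without both libraries rich in muscle RNA (adjusted p = 0.0497, limma-voom). *Hoxd1* passed when either of 2 libraries was left out singly but not the other 4, with adjusted p-values from 0.0299 to 0.106 in limma-voom.

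*Hoxd9*, the next gene on the 5′ side of *Hoxd8* and a gene of thoracic to lumbar levels, had only 9, 4 and 9 counts in Nf1 and 29, 36 and 24 counts in the libraries labelled dKO. This was 0.624, 0.238 and 0.577 CPM against 2.31, 2.96 and 1.58 CPM, without overlap. In log2 units the difference was 2.23 (SE 0.61, adjusted p = 0.0426, limma-voom), and the call was lost whichever of the 6 libraries was left out, with adjusted p-values from 0.0523 to 0.125 in limma-voom.

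*Hoxa7*, a brachial to thoracic gene, was at 2.98, 0.894 and 1.80 CPM in Nf1 but 5.82, 7.15 and 6.34 CPM in the libraries labelled dKO. The lowest library labelled dKO was above the highest Nf1 library. In log2 units the difference was 1.94 (SE 0.43, adjusted p = 0.0246, limma-voom). It passed when either of 2 libraries was left out singly but not the other 4, and was 1.96 without replicate 3 labelled dKO (adjusted p = 0.0510, limma-voom) and 1.41 without both libraries rich in muscle RNA (adjusted p = 0.0861, limma-voom). Exons of *Hoxa7* share 586 bases with *Hoxaas3* on the other strand, and strandedness of the counting is not stated, so reads of this pair cannot be told apart.

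**Figure D3:**
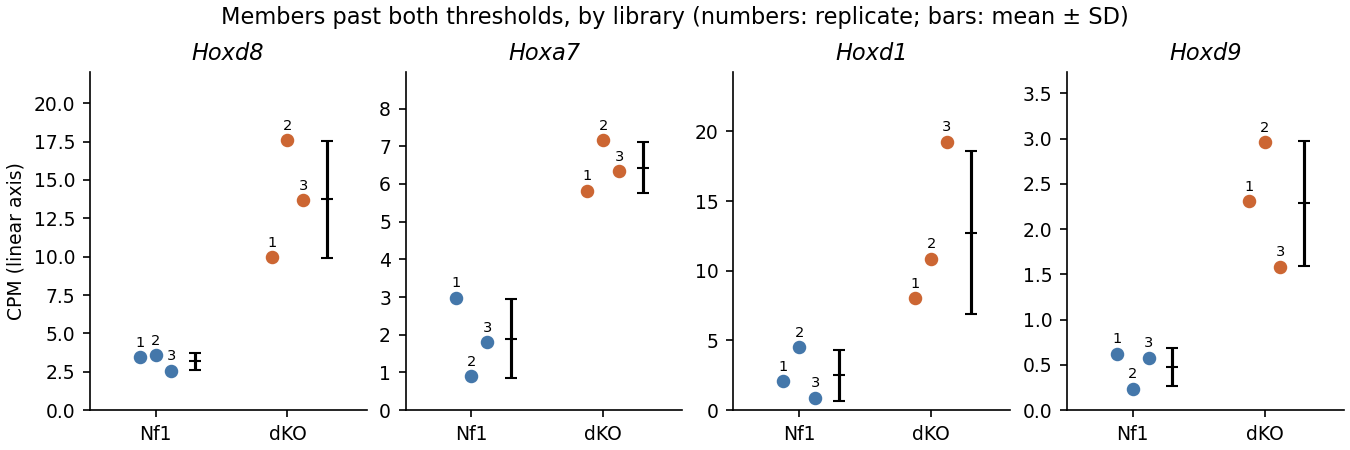
CPM (linear axis) of the 4 members past both thresholds in each library, with replicate numbers beside the points and the mean ± SD of 3 libraries as bars. For each gene the 3 libraries labelled dKO lie above the 3 Nf1 libraries, with the widest spread at *Hoxd1*, from 8.05 to 19.3 CPM.

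Among the members not called, the lowest adjusted p was that of *Hoxa5*, the leading HoxA gene, which is needed for cervical vertebrae and lung. It was at 4.37, 2.26 and 4.17 CPM in Nf1 but 9.24, 7.32 and 6.07 CPM in the libraries labelled dKO, without overlap (log2 fold change 1.10, SE 0.35, adjusted p = 0.0643, limma-voom). DESeq2 called it at 1.06 (adjusted p = 0.0247). *Hoxb5*, its HoxB counterpart, was at 4.72, 2.56 and 4.62 CPM against 7.41, 5.51 and 14.1 CPM (log2 fold change 1.18, SE 0.45, adjusted p = 0.111, limma-voom), and DESeq2 called it too. *Hoxd3* was at 0.277, 1.37 and 0.641 CPM against 2.47, 2.06 and 1.98 CPM (log2 fold change 1.68, SE 0.60, adjusted p = 0.0899, limma-voom). The exons of *Hoxd3* and *Hoxd4* share 2225 and 1154 bases with Gm28230 on the same strand, 388 bases with each other and 347 bases with the antisense transcript *Hoxd3os1*, which itself had 2 counts in each Nf1 library and 18, 6 and 17 counts in those labelled dKO.

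*Hoxb3*, first by the mean over all 6 libraries per kb but ranked 1 to 3 in the Nf1 libraries and 3 to 4 in those labelled dKO, did not pass the test. It was at 19.8, 19.7 and 13.9 CPM in Nf1 and 17.8, 18.8 and 20.4 CPM in the libraries labelled dKO, with a log2 fold change of 0.12 and a 95% interval of -0.35 to 0.58 (adjusted p = 0.715, limma-voom). Its exons share 2250 bases with the antisense *Hoxb3os*. *Hoxb7* was at 6.52, 4.23 and 7.12 CPM against 4.38, 6.74 and 5.28 CPM, with an interval of -0.84 to 0.64 around -0.10 (adjusted p = 0.856, limma-voom). *Hoxb4*, which like *Hoxb3* is a gene of the neck and lower hindbrain, was at 8.46, 12.3 and 8.47 CPM in Nf1 and 6.61, 6.09 and 6.14 CPM in the libraries labelled dKO, where it was lower in every library (log2 fold change -0.62, SE 0.25, adjusted p = 0.128, limma-voom). *Hoxa2* was the other member whose libraries labelled dKO all lay below the Nf1 libraries, at 2.87, 1.48 and 2.11 CPM against 3.26, 3.10 and 2.95 CPM (adjusted p = 0.313, limma-voom).

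*Hoxc6*, which marks forelimb levels, was at 8.05, 0.774 and 7.25 CPM in Nf1 and 6.06, 5.59 and 5.48 CPM in the libraries labelled dKO. The log2 difference, 0.73 in all libraries (SE 0.81, adjusted p = 0.559, limma-voom), became -0.38 when Nf1 replicate 2 was left out. *Hoxa9* behaved likewise, at 1.39, 0 and 2.25 CPM against 2.23, 2.14 and 0.726 CPM, with 1.80 (SE 1.45, adjusted p = 0.418, limma-voom) in all libraries and -0.26 without Nf1 replicate 2. The edgeR and DESeq2 fits put it at 0.48, and *Hoxc6* at 0.095 and 0.084. *Hoxc8* was at 8.25, 0.477 and 2.05 CPM against 3.98, 4.69 and 6.01 CPM (log2 fold change 1.34, SE 0.83, adjusted p = 0.290, limma-voom), and was 0.31 without that library, 0.45 in edgeR and 0.44 in DESeq2. *Hoxb8* was at 1.18, 1.25 and 0.770 CPM against 0.717, 0.493 and 1.58 CPM (log2 fold change -0.26, SE 0.60, adjusted p = 0.792, limma-voom).

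By cluster, the log2 fold change was above 0 in 5 of 8 tested HoxA members (median 0.69, 1 called), 3 of 7 HoxB members (median -0.10, 0 called), all 4 HoxC members (median 0.69, 0 called) and all 6 HoxD members (median 1.87, 3 called). Of the 4 HoxC members, *Hoxc4*, *Hoxc5* and *Hoxc6* were below 0 without Nf1 replicate 2, at -0.41, -0.36 and -0.38. By band, the median was -0.56 over 7 tested members of paralogues 1 to 3, where *Hoxd1* was the only called gene, 0.65 over 7 members of 4 to 5 and 1.04 over 8 members of 6 to 8, with *Hoxa7* and *Hoxd8* called. For paralogue 9 it was 2.02 over *Hoxa9* and *Hoxd9*, of which *Hoxa9* rested on Nf1 replicate 2. The median of paralogues 4 to 5 was the value of *Hoxc5*, which was -0.36 without that library. That of 6 to 8 lay between the values of *Hoxc6* and *Hoxc8*, which were -0.38 and 0.31 without it. These medians are descriptions over members that passed the filter. Those of HoxA, HoxC, paralogues 6 to 8 and paralogue 9 hold limma-voom values of *Hoxc6*, *Hoxc8* or *Hoxa9*, which were lower in edgeR and DESeq2.

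**Figure D4:**
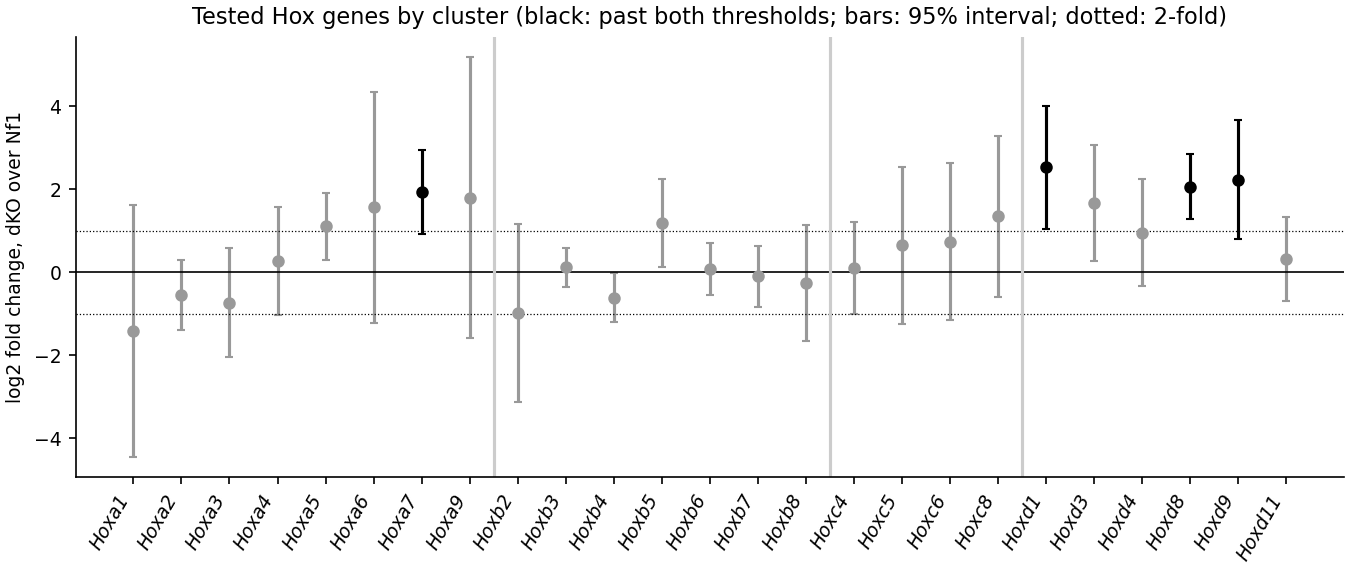
Log2 fold change of libraries labelled dKO over Nf1 for the 25 tested members, ordered by cluster and paralogue number, with 95% intervals (bars), 2-fold (dotted) and the called members in black. The 6 HoxD members all lie above 0, from 0.33 to 2.53, whereas HoxB runs from -0.98 to 1.18.

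Hox proteins bind DNA with partner homeodomain proteins of the TALE class. Of 8 tested TALE genes (9 listed), 0 were called by limma-voom, edgeR or DESeq2, and 3 had an unadjusted p below 0.05. Over all genes tested, limma-voom called 13.4% in either direction and put 35.2% at an unadjusted p below 0.05. Polycomb genes, which keep silent Hox genes repressed, had 15 of 15 tested and 0 called by any of the 3 tools, with 5 at an unadjusted p below 0.05. *Bmi1* had their highest level in CPM, at 89.9 ± 9.49 and 79.5 ± 8.33 CPM (SD, n = 3 each). The trithorax and demethylase genes, which keep Hox genes active, had 7 tested, 0 called by any of the 3 tools and 0 at an unadjusted p below 0.05. Their most abundant, *Kmt2a*, was at 441 ± 20.2 and 411 ± 44.8 CPM (SD, n = 3 each). The caudal and flanking homeobox genes, which act upstream of or beside the clusters in embryos, had 0 of 5 tested, with *Cdx1*, *Evx1* and *Evx2* at 0 in all libraries.

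Retinoic acid induces the 3′ Hox genes in embryos. Of 10 tested genes of its synthesis, breakdown and receptors (12 listed), 2 were called lower and 0 higher by limma-voom. Over all genes tested, 5.36% were called lower and 8.03% higher. The edgeR and DESeq2 tests each called 1 more gene of the list, *Cyp26b1*. *Aldh1a2*, an enzyme of retinoic acid synthesis, was at 10.1, 10.1 and 13.3 CPM in Nf1 and 0.638, 0.987 and 1.12 CPM in the libraries labelled dKO (log2 fold change -3.56, SE 0.44, adjusted p = 0.00835, limma-voom). *Aldh1a3*, a second such enzyme, was at 141, 97.5 and 156 CPM against 19.8, 13.2 and 47.8 CPM (log2 fold change -2.43, SE 0.42, adjusted p = 0.0137, limma-voom). *Rara*, a receptor, was at 52.2 ± 1.45 and 29.0 ± 3.12 CPM (SD, n = 3 each), lower by less than 2-fold (log2 fold change -0.85, adjusted p = 0.0127, limma-voom). *Cyp26b1*, an enzyme of retinoic acid breakdown, was at 57.8, 147 and 34.3 CPM in Nf1 and 27.6, 17.0 and 14.4 CPM in the libraries labelled dKO (log2 fold change -1.83, SE 0.59, adjusted p = 0.0681, limma-voom). Other transcripts from within the clusters, among them *Hotair* and *Mir10a*, did not pass the filter on low counts. With every gene with a count kept, *Hoxd3os1* was called higher. Of 19 such names, 10 were in the tables, 6 of them at 0 in all libraries.

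The make-up of the tissue differed between the groups beside these results. For the marker counts that follow, 8.03% of all genes tested were called higher and 5.36% lower. All 18 sensory neuron markers had higher levels in the libraries labelled dKO and 17 were called. Their summed level was 1348, 2626 and 1257 CPM in Nf1 and 6357, 7370 and 14270 CPM in the libraries labelled dKO. The 6 libraries had the same order by this sum as by *Hoxd1*, with no test made. Of 9 fibroblast markers 5 were called lower, with sums of 9382 to 10011 CPM in Nf1 and 3483 to 5735 CPM in the libraries labelled dKO. Of 7 tested macrophage markers 6 were called lower, and their sums were 449 to 1014 CPM against 89.1 to 215 CPM. Of 10 SC markers 4 were called higher, with sums of 1762 to 2020 CPM against 2439 to 3280 CPM. Both groups thus held neuronal and SC RNA, as a ganglion would. The part of these cell types in the Hox differences was not tested.

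Adipocyte markers had 0 of 5 called by limma-voom and ranged from 19.7 to 144 CPM in Nf1 and 78.3 to 691 CPM in the libraries labelled dKO. Of the markers of neighbouring tissue, those of spinal cord summed to 27.7 to 61.8 CPM over all libraries. Of these, *Gfap*, which satellite glia and non-myelinating SCs also express, was called lower, at 27.4 ± 3.83 against 7.10 ± 1.58 CPM (SD, n = 3 each, adjusted p = 0.00835, limma-voom). *Aqp4* was at 2.99 ± 1.61 against 17.0 ± 10.9 CPM (SD, n = 3 each, adjusted p = 0.0770, limma-voom), and *Olig2* and *Mog*, which define oligodendrocytes, were at 0 to 0.398 CPM. Marrow markers summed to 19.1 to 56.1 CPM, with *Hbb-bs* and *Hbb-bt* at 0 in all. *Mpo*, a neutrophil precursor gene, had 298 counts in Nf1 replicate 2 and 200 counts in replicate 3 labelled dKO, against 4 to 17 counts in the other libraries. Bone and cartilage markers summed to 75.6 to 87.1 CPM in Nf1 and 14.6 to 22.8 CPM in the libraries labelled dKO, mostly as *Col2a1* (73.6, 43.3 and 86.2 CPM against 20.1, 12.7 and 11.2 CPM), the only one of 3 tested that was called, and lower. *Acan*, *Bglap* and *Sp7* were below 1 CPM in every library. Endothelial markers summed to 98.6 to 210 CPM over all libraries.

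The muscle markers separated libraries within each group rather than the groups, with 0 of 10 called by limma-voom and 0 at an unadjusted p below 0.05. Nf1 replicate 2, with 19080 CPM of them, was the library with HoxC at 4.23 CPM, *Hoxa9* and *Hoxa10* at 0 and *Hoxb4* at its highest, 12.3 CPM. It also had the highest levels of the bone gene *Ibsp*, at 493 counts against 2 to 63 counts elsewhere, and of the cartilage gene *Chad*, at 152 counts against 3 to 29 counts. The part of muscle, marrow or bone RNA in its Hox values was not tested. Replicate 2 labelled dKO, with 48408 CPM of them, had HoxC at 23.6 CPM and *Hoxa10* at its highest, 1.89 CPM. Without both libraries, *Hoxd8* (log2 fold change 1.99, adjusted p = 0.0297, limma-voom) and *Hoxd1* stayed called, whereas *Hoxa7* and *Hoxd9* did not.

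**Figure D5:**
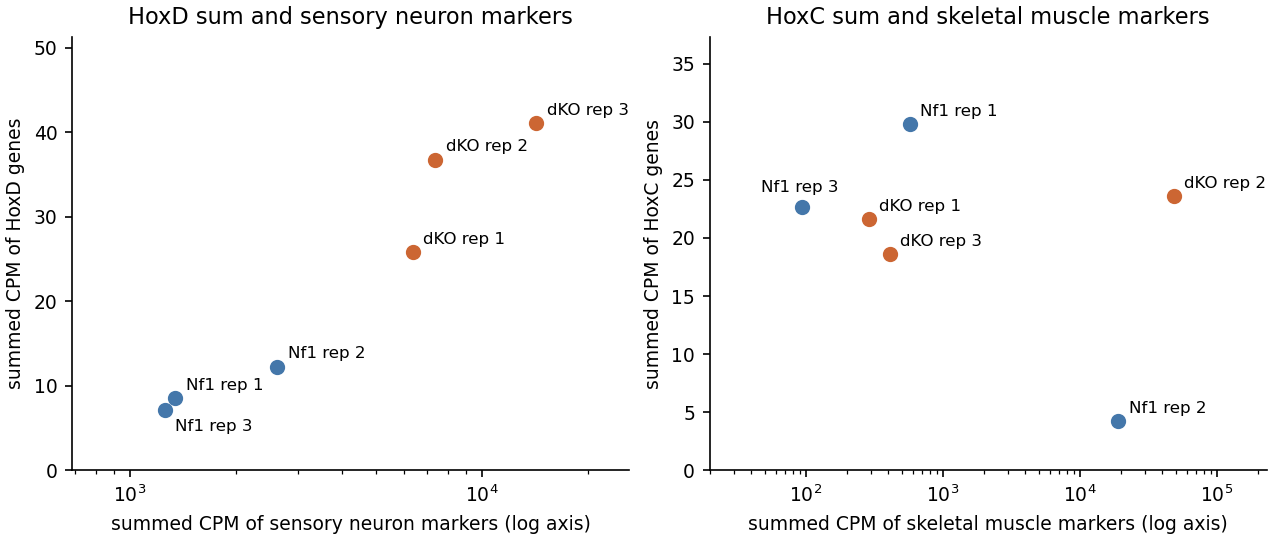
Left, summed CPM of HoxD genes (linear axis) against summed CPM of 18 sensory neuron markers (log axis), and right, summed CPM of HoxC genes against summed CPM of 10 skeletal muscle markers (log axis), with 1 point a library. The libraries labelled dKO lie at upper right in the left panel, and in the right panel the library with the lowest HoxC level, Nf1 replicate 2 at 4.23 CPM, and replicate 2 labelled dKO at 23.6 CPM lie to the right of the other 4.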

How the data were processed

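Expression was measured by bulk RNA-seq in 6 libraries, 3 per group. RNA was amplified with a NuGEN Ovation kit, and paired-end reads were aligned by the authors with TopHat to mm10. The deposited values are raw counts per gene symbol, assigned by the authors with featureCounts and not normalized. The gene annotation, the strand setting and the handling of multimapping reads are not given in the sources used here. The submitters' processing notes also name CASAVA 1.4.

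Rows with low counts were dropped by filterByExpr (at least 10 counts and a total of 15, a limit near 0.69 CPM at the median library), scaled by TMM in edgeR 4.0.16 and fitted with limma-voom (limma 3.58.1, R 4.3.3), with group alone as a factor. Benjamini-Hochberg adjustment ran over all 15652 genes. A call needed an adjusted p below 0.05 and over 2-fold difference. CPM used the kept counts and TMM factors. Lengths and positions came from GENCODE M21 (GRCm38), and promoters from RefSeq (GRCm38.p6). The steps were tested on simulated counts.

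The members, lists and tests were chosen with earlier results of these data known. Members were named with all values if they were called, led their cluster per kb, stood at or next beyond the edge of detection, or were tested members of groups 9 and 10. Other members were named after their values were seen. Genes of the cofactor and regulator lists were named at an adjusted p below 0.05 or as the highest of their list. A gene that meets this rule is not reported here. Alternatives included DESeq2 1.42.0, the quasi-likelihood test of edgeR, other size factors, other filters, sample quality weights, other lengths and weights, and leaving out libraries. Plots used Python 3.11.15 and matplotlib 3.10.9.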

Additional observations from a re-analysis of the deposited data

How the results depend on the processing

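No paired analysis was possible because replicate numbers were given in label order and pair no mice. The count of members called higher, 4, ran from 4 to 6 under 8 other settings (6 in DESeq2, which added *Hoxa5* and *Hoxb5* and called 2907 of all genes against 2096). It was 7 at unadjusted p-values and 2 without both libraries rich in muscle RNA, a setting added after seeing the data. When 1 library was left out it ran from 0 to 3. It was 0 without Nf1 replicate 1, where 362 genes were called in all against 2096, and 1 (*Hoxd8*) without Nf1 replicate 3 or without replicate 2 or 3 labelled dKO. The cause was not tested. No setting called a member lower. The 2 regulator genes called became 3 with edgeR or DESeq2, which added *Cyp26b1*, and 3 with every gene with a count kept, which added *Hoxd3os1*. When 1 library was left out they became 1 to 3, with only *Aldh1a2* left without Nf1 replicate 1. The ratio of summed Hox levels, 1.44, ran from 1.34 to 1.57 when 1 library was left out. The difference in mean paralogue number, 0.14, was 1.08 in HoxA alone and -0.80 in HoxD alone, ran from -0.13 to 0.28 when 1 library was left out, and was 0.60 with *Hoxd1* left out, also added after seeing the data.

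The log2 fold change of 10 tested members turned sign when 1 library was left out, and none of the 10 was called in any of those fits. They were the 5 below and *Hoxa4*, *Hoxb2*, *Hoxb6*, *Hoxc4* and *Hoxc5*. *Hoxa9* ran from -0.26 (without Nf1 replicate 2) to 2.99 when 1 library was left out, and *Hoxc6* from -0.38 (the same library) to 1.31. Without both libraries rich in muscle RNA they were -0.52 and -0.39. *Hoxb3* ran from -0.015 (without Nf1 replicate 3) to 0.244, *Hoxb7* from -0.306 to 0.0797 (without Nf1 replicate 3; 0.00018 without Nf1 replicate 1 and 0.0627 without replicate 1 labelled dKO) and *Hoxb8* from -0.754 to 0.0868 (without replicate 2 labelled dKO). *Hoxb8* was 0.23 without both libraries rich in muscle RNA. The edgeR and DESeq2 values of *Hoxa9* (0.48 in both), *Hoxc6* (0.095 and 0.084) and *Hoxc8* (0.45 and 0.44) were over 1.5 times smaller than those of limma-voom (1.80, 0.73 and 1.34). Low counts limit paralogue groups 9 to 13, where only *Hoxa9*, *Hoxd9* and *Hoxd11* could be tested.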
